A study of Bos taurus with 56 samples.

Results

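The regions described here are stretches of the cattle (Bos taurus) genome at which accessible chromatin was listed in morulae derived in vivo and in no other oocyte or embryo group of the series. Overlapping peaks of all 11 deposited lists were joined into 482097 union regions, a single shared base being enough to join peaks. Of these regions, 53453 held an in vivo morula peak, and 15205 held an in vivo morula peak and no peak of the other 10 lists. Each of the 15205 regions consisted of 1 in vivo morula peak, so that they made up 26.7% of the 57039 peaks of that list (95% exact Clopper-Pearson interval 26.3% to 27.0%). The intervals given here cover counting error only and treat peaks as independent. The regions were chosen by presence and absence of peaks in the lists, so both are a description and not a finding.

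ATAC-seq was used, an assay in which the enzyme Tn5 cuts exposed DNA and attaches the adapters needed for sequencing, so that open stretches gather reads and are called as peaks. The in vivo morula list was made from 4 libraries. The other lists came from GV oocytes (6 libraries, immature oocytes at the germinal vesicle stage), MII oocytes (5 libraries, mature oocytes at metaphase II), cleavage embryos with 2 cells (6), 4 cells (6), 8 cells (5) and 16 cells (5), morulae (6) and blastocysts (3) that carry no in vivo label, in vivo blastocysts (4) and elongating embryos of day 14 (6). The labels name no treatment or genotype, each library was made from pooled oocytes or embryos, and neither breed, sex nor the production of the groups without an in vivo label is stated. The replicate libraries of a group had been merged into 1 list of positions, with no height, score or read count, so sequencing depth was unknown, no test between groups was possible, and all differences are between single lists. No stage markers could be examined, since the lists hold no gene names and no annotation of their genome build was used.

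A morula is the compacting ball of cells that forms after the early cleavages and before the blastocyst cavity opens. In cattle it follows the main activation of the embryonic genome, and its outer and inner cells go on to the trophectoderm, which gives rise to the placenta, and to the inner cell mass, which gives rise to the embryo proper. Accessible regions include promoters, which lie at the starts of genes, and enhancers, which can lie far from the genes they act on, and many enhancers are open only at particular stages. An embryo derived in vivo has developed in the reproductive tract of the cow.

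The sharing of in vivo morula regions with the other lists was graded rather than all-or-none. Apart from the 15205 regions with no other list, 9252 (17.3%) were shared with 1 other list, 9771 (18.3%) with 2, 8235 (15.4%) with 3 and 8859 (16.6%) with 4, whereas 105 (0.196%) were found in all the 10 other lists. Among those shared with 1 list, 4627 were shared with the morula list without the in vivo label and 3611 with the day 14 list. The 16-cell and 8-cell lists followed with 560 and 386 regions, and the in vivo blastocyst list shared 25 regions with the in vivo morula list and no other. The regions found in both morula lists and in no other are used below for comparison. For the same purpose, the rule was applied to the morula list without the in vivo label, which gave 27704 regions, to the 16-cell list, which gave 23663, and to the 8-cell list, which gave 21881. These are 31.2%, 31.2% and 37.0% of the peaks of their lists, all above the 26.7% of the in vivo morula list.

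Regions found in the in vivo morula list only were narrow. Their median width was 393 bp (interval of the median 390 to 395 bp), with a range from 268 to 1997 bp and with 90% of them between 288 and 786 bp. In vivo morula peaks that another list shared had a median of 675 bp and reached 11608 bp. Only 234 of the 15205 regions (1.54%) were 1000 bp or wider, against 12077 of the 41834 shared peaks (28.9%). Regions found in both morula lists and no other were wide, with a median of 918 bp, although joining 2 peaks widens a region by construction. The other sets with a single list resembled the in vivo set in width. Among regions of at least 268 bp, the width of the narrowest in vivo morula peak, the median was 386 bp for the morula list without the label, 365 bp for the 16-cell list and 390 bp for the 8-cell list.

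The share of peaks in no other list fell with width in each of these 4 lists. Of the in vivo morula peaks from 268 to 357 bp, 49.6% were in no other list (interval 48.7% to 50.5%), and of those of 1042 bp or more, 1.5% (interval 1.28% to 1.74%). A wider peak meets a peak of another list more readily, so part of this gradient belongs to the rule itself. In the 4 narrower classes the in vivo morula share lay between those of the other lists. From 358 to 467 bp it was 42.6%, against 46.7% in the morula list without the label, 37.0% in the 16-cell list and 47.5% in the 8-cell list. At 1042 bp or more it was the lowest of the 4, with 3.23%, 2.26% and 6.39% in the other lists.

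**Figure D1:**
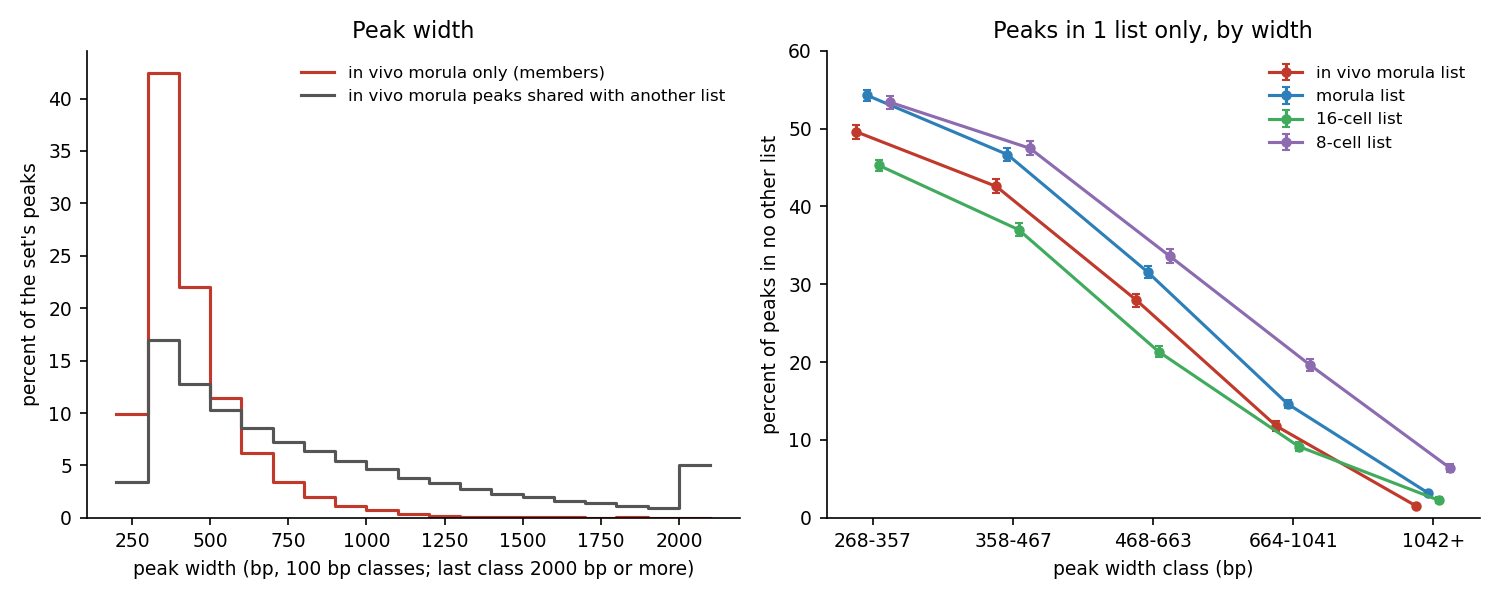
Left, distribution of peak width (x axis, bp; y axis, percent of each set) for the 15205 regions found in the in vivo morula list only and for the 41834 in vivo morula peaks shared with another list. Right, percent of peaks found in no other list (y axis) by width class (x axis, bp) for 4 lists, with 95% exact intervals as bars; in the in vivo morula list the share runs from 49.6% in the narrowest class to 1.5% in the widest.

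The widest of these regions lay apart from one another on 7 chromosomes. The widest was on chromosome 20 from 15754077 to 15756073 (UMD3.1 here and throughout), 1997 bp long, with the nearest peak of any other list, a day 14 peak, 10697 bp away and the nearest morula peak 18987 bp away. Behind it came regions on chromosome 21 from 45624384 to 45626280 (1897 bp), chromosome 10 from 58666981 to 58668869 (1889 bp) and chromosome 21 from 48099141 to 48100991 (1851 bp). These 4 differed in their surroundings. The first region on chromosome 21 had a morula peak 1400 bp away, and the region on chromosome 10 had a day 14 peak 257 bp away and a morula peak 872 bp away. The second region on chromosome 21 had no other list's peak within 5 kb, the nearest being a day 14 peak at 5807 bp.

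The other 6 of the 10 widest regions were from 1699 to 1838 bp long. They lay on chromosome 26 from 31724007 to 31725844, chromosome 20 from 31286941 to 31288746, chromosome 8 from 76768687 to 76770489 and from 41963116 to 41964845, chromosome 1 from 133550628 to 133552340 and chromosome 24 from 34543016 to 34544714. The regions on chromosome 20 and chromosome 24 stood beside a morula peak, 982 and 930 bp away, and beside a shared in vivo morula peak, 431 and 633 bp away. The region on chromosome 8 from 41963116 was the most separate of the 6, with 7944 bp to the nearest other list, the 16-cell list, and 24589 bp to the nearest shared in vivo morula peak. On chromosome X the widest region, from 146462777 to 146463736, was 960 bp long. At the other end, the 3 narrowest regions in genome order were 268 bp long, 1 of them on chromosome 1 (147243470 to 147243737) and the other two on chromosome 2 (47014119 to 47014386 and 127158152 to 127158419).

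At the edge of the rule, some of these regions missed a peak of another list by few bases. In 8 of them the peak touched a peak of another list without sharing a base, for example on chromosome 2 from 111825034 to 111825631, chromosome 3 from 8477658 to 8477962 and chromosome 5 from 102579299 to 102579923, each of which touched a day 14 peak. A gap of 50 bp or less was found for 524 regions (3.45%). Just outside the rule, the in vivo morula peaks on chromosome 2 from 86424718 to 86425560 and chromosome 4 from 98033743 to 98034060 each shared 1 bp with a day 14 peak, and the one on chromosome 5 from 23044196 to 23044616 shared 1 bp with a morula peak. Of the 9076 in vivo morula peaks that stood alone in a region with 1 other list, 456 (5.02%) shared 50 bp or less with it.

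Many of these regions stood near peaks of other lists. The median gap to the nearest peak of any other list was 1897 bp, and 5428 regions (35.7%) lay within 1 kb of one. The nearest such peak belonged to the day 14 list for 47.7% of the regions, to the morula list without the label for 27.3%, to the 16-cell list for 11.7% and to the 8-cell list for 10.6%, an order that also depends on the lengths of the lists. Median width was alike near to and far from other lists. Regions within 1 kb of another list's peak had a median width of 393 bp (interval 388 to 398 bp), and the 505 regions more than 20 kb away had a median of 387 bp (interval 377 to 397 bp). Nearness to other lists was not particular to this set. Within 1 kb of a peak of another list lay 37.1% of morula only, 38.6% of 16-cell only and 35.3% of 8-cell only regions. The other lists differ from set to set in these values.

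Gaps toward one and the same list can be set side by side between sets, since the length of that list is then equal. Toward the morula list without the label, the regions found in the in vivo morula list only had a median gap of 7422 bp, against 8809 bp for 16-cell only regions and 9654 bp for 8-cell only regions. Within 1 kb of a morula peak lay 16.8% (interval 16.2% to 17.4%), 13.6% and 11.3% of these sets. Toward the 16-cell list the median gap was 11730 bp, against 11000 bp for morula only and 8212 bp for 8-cell only regions. Within 1 kb of a 16-cell peak were 9.26% (interval 8.80% to 9.73%), 12% and 13.6%. Toward the day 14 list the 4 sets were close together, with medians from 3660 to 4130 bp and 3727 bp for the in vivo set.

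Blastocyst peaks were few and thus far from most of these regions, with 33 of the 15205 within 1 kb of an in vivo blastocyst peak and 27 within 1 kb of a blastocyst peak without the label. The median gap to the in vivo blastocyst list was 499346 bp, the shortest of the 4 sets with a single list, which had 553078 bp for the morula, 650486 bp for the 16-cell and 643469 bp for the 8-cell list. To the blastocyst list without the label the gap was 667234 bp, against 659072 bp for morula only regions 773209 bp for 16-cell only and 753559 bp for 8-cell only regions. By median gap, the in vivo set was thus nearer than the morula only set toward the in vivo blastocyst list, and not toward the other blastocyst list. Regions in both morula lists and no other had a median gap of 551980 bp to the in vivo blastocyst list. At 1 kb the contrast was not seen. Near an in vivo blastocyst peak lay 0.217% of the in vivo set (interval 0.149% to 0.305%) and 0.202% of morula only regions (interval 0.153% to 0.262%). Toward the other blastocyst list the shares were 0.178% and 0.141%. Gaps of this size span many genes and describe broad neighbourhoods, and the set with the shortest gap was not tested against the others.

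**Figure D2:**
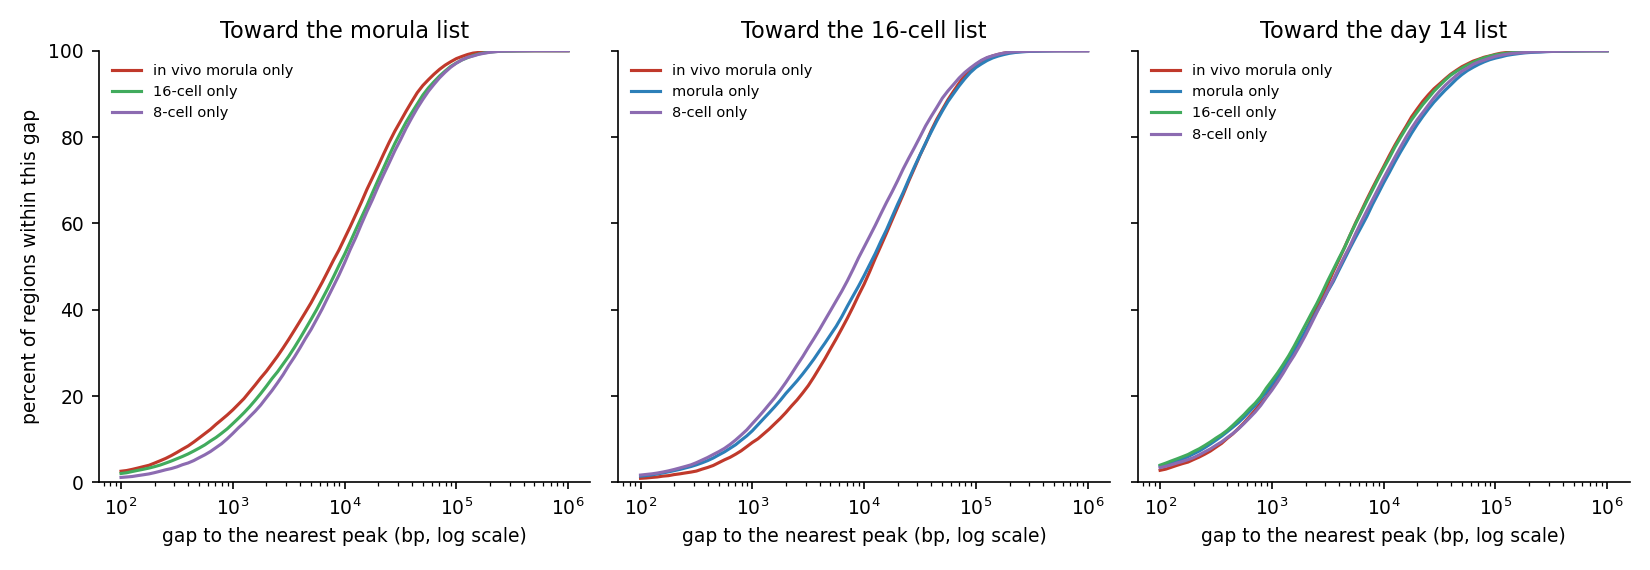
Percent of regions (y axis) whose nearest peak in the named list lies within a given gap (x axis, bp, log scale), for regions found in a single list, toward the morula list, the 16-cell list and the day 14 list. The in vivo morula only curve lies highest toward the morula list (16.8% within 1 kb) and lowest at short gaps toward the 16-cell list (9.26% within 1 kb), and the 4 curves nearly coincide toward the day 14 list.

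A smaller part of the regions stood far from everything else. No peak of any other list lay within 10 kb of 1794 regions (11.8%), and 318 regions (2.09%) had no 8-cell, 16-cell or morula peak within 50 kb. The 3 most separate lay on chromosome 23 from 26308102 to 26308542, chromosome 26 from 28799925 to 28800271 and chromosome X from 48273990 to 48274343. Their nearest peaks of another list were 82730, 81721 and 80698 bp away, and their widths of 441, 347 and 354 bp were ordinary for the set. The nearest other in vivo morula peak was 181597 bp or more away from each of them.

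Within the in vivo morula list, these regions were mostly not satellites of shared peaks. Of the 15205, 4333 (28.5%, interval 27.8% to 29.2%) lay within 5 kb of an in vivo morula peak that another list shared, and the median gap to such a peak was 17078 bp. The regions within 5 kb of a shared peak had a median width of 405 bp (interval 399 to 411 bp) and the others one of 389 bp (interval 386 to 391 bp). Their own spacing was loose, with a median gap of 35269 bp to the next region of the set and 3550 regions (23.3%) within 10 kb of another. Among morula only, 16-cell only and 8-cell only regions, which are more numerous, 32.8%, 28.1% and 36.6% lay within 10 kb of another of their set.

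Some of the regions formed runs with gaps of up to 10 kb. There were 1550 runs of 2 or more, of which 304 held 3 or more regions and 1058 regions in all, 6.96% of the set. The run with the most regions, on chromosome 13 from 48117672 to 48148456, held 9 regions of 322 to 807 bp over 30.8 kb, together with 4 shared in vivo morula peaks and 6 morula peaks. A run of 8 on chromosome 10 from 58607602 to 58646065, which spanned 38.5 kb, had 6 shared in vivo morula peaks, 7 morula peaks and 10 day 14 peaks among its regions. The other run of 8, on chromosome 23 from 20604841 to 20627143, held no morula or 16-cell peak, with 1 8-cell peak, 4 day 14 peaks and 2 shared in vivo morula peaks over 22.3 kb. This stretch of chromosome 23 was thus listed as accessible at 10 sites in in vivo morulae and at none in the morula list without the label.

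Across 1 Mb windows the regions were widely spread. Of 2678 windows with a peak of any list, 220 held none of these regions, the median was 5 per window and the highest value 30. The 156 windows with 15 or more held 19% of the set. The fullest window, on chromosome 10 between 58 and 59 Mb, held 30 of these regions among 72 in vivo morula peaks. It contains both the run of 8 and the region of 1889 bp described above. The next held 28 of 65 peaks on chromosome 1 between 111 and 112 Mb, 27 of 61 on chromosome 13 between 23 and 24 Mb, 26 of 44 on chromosome 5 between 90 and 91 Mb and 26 of 74 on chromosome 8 between 76 and 77 Mb. These windows were not empty in the morula list without the label, which had from 40 to 67 peaks in each of them.

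The windows with the highest shares were of another kind. Among windows with at least 10 in vivo morula peaks, the median share of these regions was 26.1%. On chromosome 8 between 94 and 95 Mb, all the 14 in vivo morula peaks were in no other list. On chromosome 6 between 80 and 81 Mb and on chromosome 10 between 96 and 97 Mb, 10 of 11 were. All 3 windows were poor in day 14 peaks, with 13, 10 and 11 against 55 to 264 in the 5 fullest windows. The day 14 list is part of the rule, so choosing windows by this share favours those with few day 14 peaks. Morula peaks of these 3 windows were also mostly in no other list, at 12 of 18, 12 of 18 and 13 of 16 peaks. The choice favours this too, since in vivo morula peaks in no other list cannot share a region with a morula peak.

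The share of in vivo morula peaks found in no other list varied between chromosomes by several fold. It was highest on chromosomes 9 (35.5%, interval 33.6% to 37.5%), 20 (35.4%), 1 (35.0%) and 12 (34.8%). It was lowest on chromosomes 25 (6.89%, 46 of 668 peaks, interval 5.09% to 9.08%), 19 (11.2%), 18 (14.1%) and X (17.4%). Density per Mb relative to the genome mean was 1.45 on chromosome 10 and 1.42 on chromosome 1, and 0.188 on chromosome 25 and 0.253 on X. Chromosomes 18, 19 and 25, which are rich in genes in cattle, held 2.93% of the regions (interval 2.67% to 3.21%) and 8.02% of the shared in vivo morula peaks. The corresponding shares were 3.02% for morula only, 5.04% for 16-cell only and 6.82% for 8-cell only regions. Median width hardly varied between chromosomes, from 375 bp on chromosome 20 to 404.5 bp on chromosome 25.

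Among the autosomes, those with a low share of these regions were mostly dense in day 14 peaks. Over the 29 autosomes, the share of in vivo morula peaks in no other list and the number of day 14 peaks per Mb had Pearson's r of -0.93 and Spearman's rho of -0.91, given as a description over chromosomes that share the same lists. The day 14 list is part of the rule, and a dense list leaves fewer peaks unshared. With the day 14 list left out of the rule, chromosome 25 had 20.7%, chromosome 19 had 26.9% and chromosome 18 had 25.6%, against 41% on chromosome 12 and 40.5% on chromosome 20. The relation to day 14 peaks per Mb was then weaker over the autosomes (r of -0.85, rho of -0.84). The shares with and without the day 14 list in the rule ran closely together over the autosomes (r of 0.97, rho of 0.95), although chromosome X, with 19.8%, was then the lowest of all chromosomes in place of chromosome 25. The share of morula only regions went with the in vivo share over the autosomes (r of 0.89, rho of 0.86). So did the shares of 16-cell only (r of 0.85, rho of 0.76) and 8-cell only regions (r of 0.79, rho of 0.71). These shares are all defined with the day 14 list, so part of the likeness belongs to the rule itself. The morula only share and day 14 peaks per Mb had r of -0.97 and rho of -0.95. An exception was chromosome 27, which had 36.4% in the morula list and 25.9% in vivo.

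**Figure D3:**
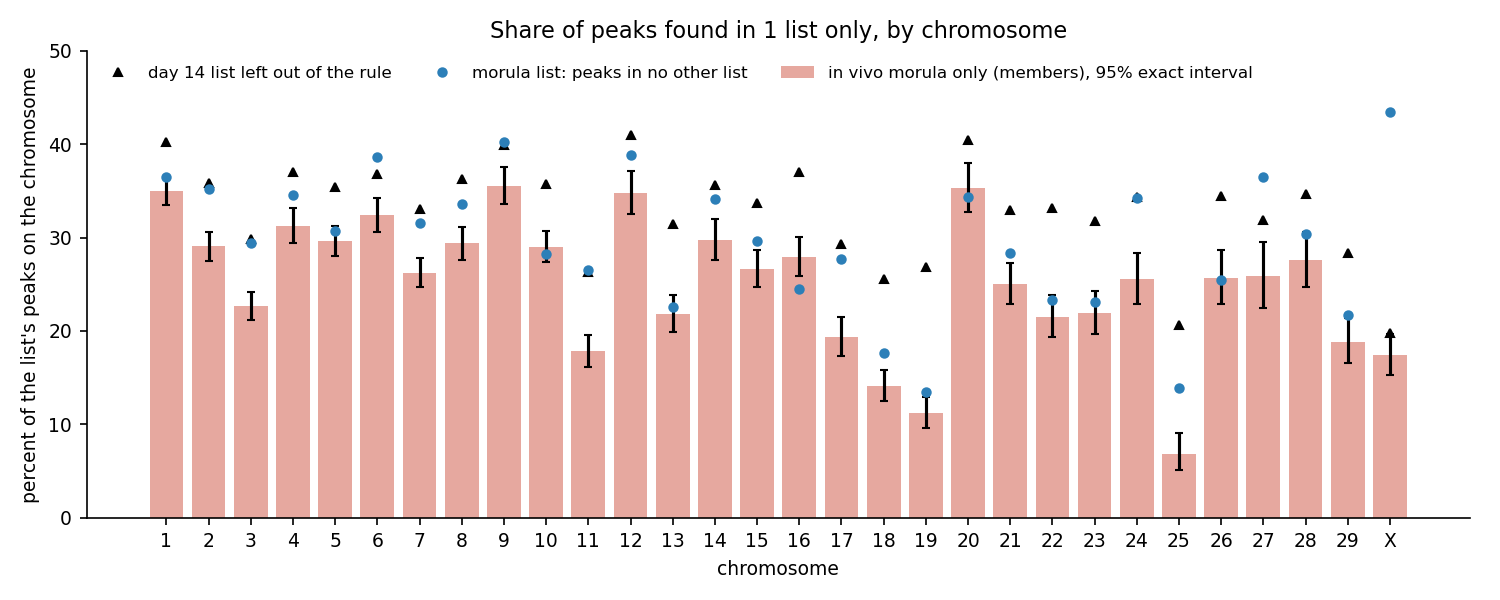
Percent of in vivo morula peaks found in no other list (bars, with 95% exact intervals) by chromosome (x axis), the same with the day 14 list left out of the rule (triangles), and the percent of morula peaks found in no other list (circles). Chromosome 25 has the lowest bar (6.89%) and chromosome 9 the highest (35.5%), and X has 17.4% in the in vivo morula list and 43.5% in the morula list.

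A gradient of the same direction was seen over 1 Mb windows pooled from all autosomes, a comparison added after the chromosome values were seen. In the quintile of windows with the fewest day 14 peaks, 49.0% of in vivo morula peaks were in no other list (interval 47.7% to 50.4%), and in the quintile with the most, 13.4% (interval 12.9% to 13.9%). With the day 14 list left out of the rule, the shares were 50.3% and 25.6%. Within single chromosomes, the windows of each autosome were split at the middle of their own order by day 14 peaks. The share was higher in the windows with fewer day 14 peaks on 29 of 29 autosomes, with a median over autosomes of 38.2% against 20.3%. It was so on 29 of 29 with the day 14 list left out of the rule too, with medians of 43.0% and 29.5%. The difference was then small on chromosomes 18 (25.9% against 25.5%) and 25 (21.9% against 20.3%). The density of these regions was highest in the middle quintile, at 7.49 per Mb, and 5.05 and 4.27 per Mb in the first and last, while all in vivo morula peaks together rose from 10.3 to 31.9 per Mb. The windows are ordered by a list that the rule uses to remove regions. With the day 14 list left out of the rule, the density was 5.19 per Mb in the first quintile, 8.80 in the middle and 8.17 in the last, so that the last was then above the first. Among peaks of like width, the shares in the first and last quintile were 68.4% and 28.9% for peaks of 268 to 357 bp and 48.9% and 13.8% for peaks of 468 to 663 bp. Without the day 14 list in the rule, these were 70.1% and 50.7%, and 49.9% and 28.7%. Peaks of 1042 bp or more showed no steady gradient, with 1.86% in the first quintile, 2.28% in the second and 0.907% in the last, and 2.23% and 3.15% in the first and last without the day 14 list in the rule. With the day 14 list in the rule, the other lists showed the gradient too. It ran from 52.5% to 16.0% for morula only, from 47.0% to 19.5% for 16-cell only and from 55.3% to 23.6% for 8-cell only peaks. The day 14 list also orders the windows, so part of these 3 gradients belongs to the rule itself.

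**Figure D4:**
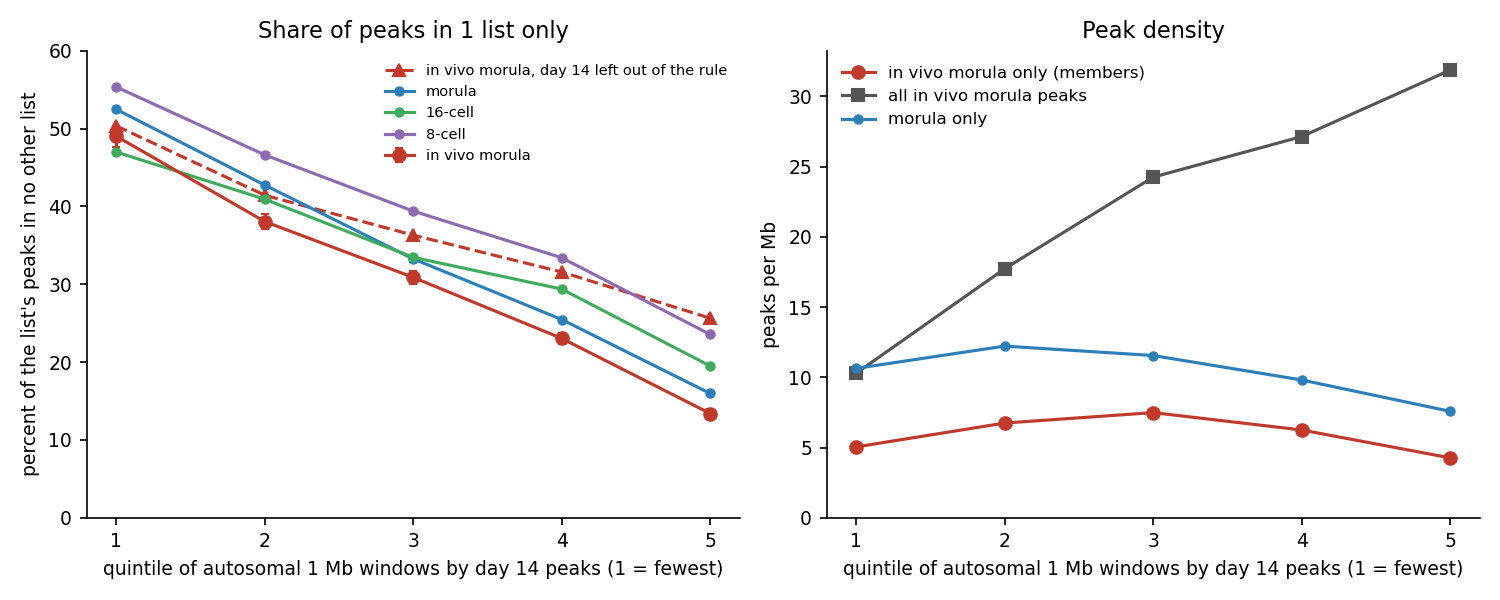
Left, percent of a list's peaks found in no other list (y axis) in 5 quintiles of autosomal 1 Mb windows ordered by day 14 peaks (x axis), for 4 lists and for the in vivo morula list with the day 14 list left out of the rule. Right, peaks per Mb in the same quintiles; all in vivo morula peaks rise from 10.3 to 31.9 per Mb, and those in no other list, a set the day 14 list helps to define, lie between 4.27 and 7.49 (8.17 in the last quintile with the day 14 list left out of the rule).

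Chromosome X departed from this relation in the in vivo morula list, and less strongly in the 16-cell and 8-cell lists. It had the fewest day 14 peaks per Mb of all chromosomes, 25.6. Yet a low share of its in vivo morula peaks, 215 of 1235, was in no other list. Of the X peaks, 28.0% in the 16-cell and 36.2% in the 8-cell list were in no other list. Over all chromosomes these shares were 31.2% and 37.0%. Only 1.41% of the regions found in the in vivo morula list only lay on X (interval 1.23% to 1.61%), against 5.94% of morula only, 2.59% of 16-cell only and 3.19% of 8-cell only regions. The whole lists differed in the same direction, with 2.17% of all in vivo morula peaks on X, 4.26% of all morula, 2.88% of all 16-cell and 3.26% of all 8-cell peaks. X made up 5.59% of the spanned genome. In the morula list without the label, 43.5% of the X peaks were in no other list, the highest value of any chromosome in that list.

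The X peaks of the in vivo morula list were more often shared than its autosomal peaks. A morula peak without the label was in the same region for 77.3% of them (interval 74.9% to 79.6%), against 62.2% on the autosomes. For a 16-cell peak the values were 48.7% against 43.0%, and for a day 14 peak 54.1% against 53.5%. In reverse, 24.97% of the morula list's X peaks shared a region with an in vivo morula peak, against 40.95% on the autosomes. The morula list held 3785 peaks on X and 85073 on the autosomes, and the in vivo morula list 1235 and 55804. X held 4.26% of all morula, 2.88% of all 16-cell and 1.02% of all day 14 peaks, against 5.59% of the spanned genome. These lists were thus sparser on X than on the autosomes. What contributed to the X values was not tested. Width did not separate the X and autosomal peaks of the in vivo morula list, with medians of 555 bp and 551 bp. Among peaks of 268 to 357 bp, 32.2% of those on X were in no other list (interval 26.1% to 38.7%), against 49.9% on the autosomes. None of the 184 X peaks of 1042 bp or more was, which allows a share of up to 1.98% by the exact interval. The 215 X regions had a median width of 395 bp, and their median gap to the morula list was 7097 bp, against 7423.5 bp for the autosomal ones. To the day 14 list, which is sparse on X, the gap was 17320 bp against 3654.5 bp, and to any other list 3223 bp against 1882 bp. The sex of the pooled embryos is not stated, and its part in these values was not tested.

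Along the autosomes, the regions were sparse at both ends. The first decile of autosome length held 5.30% of them and the last 5.84%, whereas the 8th held 13.7%. Shared in vivo morula peaks were spread more evenly, with 6.99%, 9.49% and 11.6% in these deciles. In the last 5 Mb of the autosomes, 5.77% of their length, lay 2.14% of the regions (interval 1.92% to 2.39%) and 4.67% of the shared peaks (interval 4.47% to 4.88%). Morula only, 16-cell only and 8-cell only regions had 4.95%, 5.03% and 4.64% there, and regions found in both morula lists and no other had 2.80%. With the day 14 list left out of the rule, the in vivo value was 2.98%. In the first 5 Mb lay 2.31% of the regions, against 3.87% of the shared peaks and 4.15% of morula only regions.

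**Figure D5:**
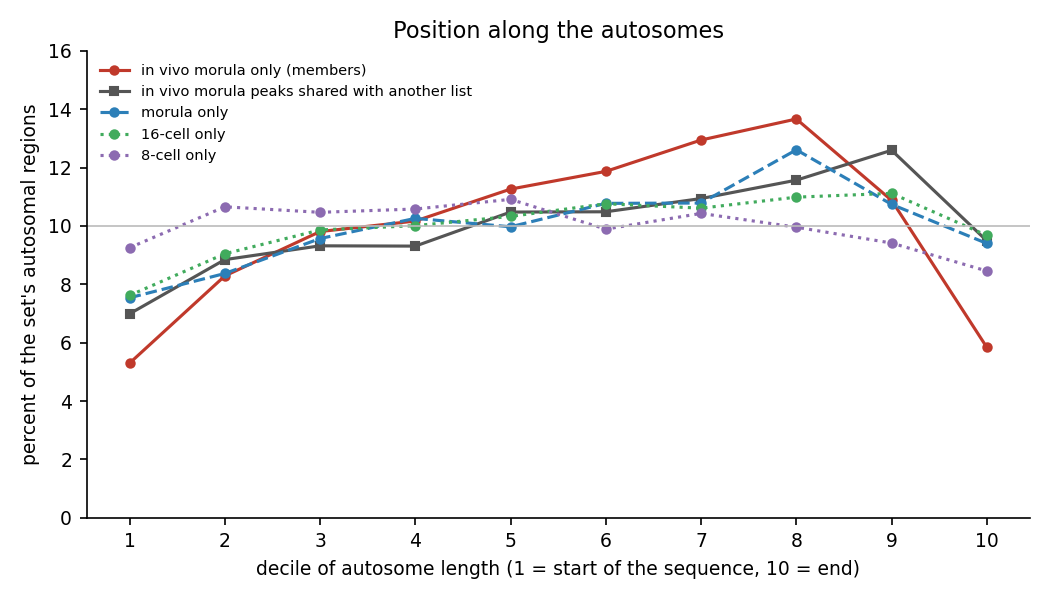
Percent of each set's autosomal regions (y axis) in 10 deciles of autosome length (x axis, from the start of each chromosome sequence to its end). The regions found in the in vivo morula list only have 5.30% in the first decile, 13.7% in the 8th and 5.84% in the last, and lie below the other 4 sets in both outer deciles.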

How the data were processed

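The 56 libraries fall into 11 groups by the labels, with 1 deposited list per group. Per the series description in the labels, the authors merged the peaks of a stage. Each list held 3 columns, the chromosome and the start and end of each peak. Bowtie2 2.3, MACS2, bedtools and HOMER, and the build UMD3.1, are named in the submitters' processing notes. For the order of use, thresholds and any read shift, the sources used here give nothing. Each of these, and depth, can change which peaks are listed. Starts were read as counted from 0 and are printed counted from 1, a convention the lists do not state.

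Union regions, widths, gaps and shares were computed with Python 3.11.15, numpy 2.4.6 and scipy 1.17.1, and plots with matplotlib 3.10.9. On simulated lists, all 6731 planted regions and all 3365 planted gaps were recovered. On the real lists, bedtools 2.31.1 gave the same count of 15205, and positions were not compared. Chromosome length was the last position in any list, 2661 Mb in all. Quintiles of windows were set by day 14 peaks per Mb.

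The regions and the comparisons were chosen with earlier results of these data known. Named regions followed a rule: the 10 widest, the widest on X, the 3 narrowest, the 3 farthest from other lists, 3 on each side of the edge of the rule, the 3 runs with the most regions, and the 1 Mb windows with the most regions (5) or the highest share (3). The gene table at hand is of another assembly, so gene context, sequences and motifs were not analysed here. Alternatives are in the closing section.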

Additional observations from a re-analysis of the deposited data

How the results depend on the processing

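Depth, peak height and the replicate libraries behind each peak are unknown, so a region missing from a list may have been accessible below that list's threshold. No paired analysis was possible because the libraries of each group were merged into 1 list, and for the same reason no replicate could be left out. The number of regions stayed within 1.5 times of 15205, from 11350 to 21025, under 6 of the 7 alternatives. It was 28410 when a peak counted as shared only with 50% of both peaks overlapping (49380 for morula only regions). Joining peaks up to 500 bp apart (11350 regions) and widening them by 250 bp (11355 regions) are nearly the same change. The 7 alternatives are thus not independent. The share of the regions among in vivo morula peaks, 26.7%, became 20.2% when peaks up to 500 bp apart were joined and 20.2% when peaks were widened by 250 bp. It was 29.6% with peaks of at least 268 bp in all lists, 28.3% with peaks of at least 329 bp, 49.8% with 50% of both peaks shared, 34.0% with the day 14 list left out of the rule and 36.9% with the morula list left out. In the order 268 bp, 329 bp, 50% shared, day 14 left out and morula left out, the median width was 396, 442, 424, 400 and 416 bp. The share within 1 kb of another list, in the order joined, widened and then as above, was 15.3%, 15.3%, 27.8%, 24.4%, 65.6%, 25% and 30.8%. It was 13.7% for 250 bp and 74.4% for 5 kb. The share in the last 5 Mb of all chromosomes, 2.16%, was in the same order of 7 settings 1.87%, 1.87%, 2.41%, 2.46%, 3.22%, 3.0% and 2.41%, with 0.710% for 2 Mb and 6.41% for 10 Mb. The share within 5 kb of a shared in vivo morula peak was 21.2% joined, 21.2% widened, 31.0% with 50% shared and 27.0% with the morula list left out, 10.2% for 1 kb and 53.2% for 20 kb. The share within 10 kb of another such region was 18.3% joined, 18.3% widened, 25.3% from 268 bp, 40.0% with 50% shared, 27.7% without the day 14 list and 32.0% without the morula list, 14.5% for 5 kb and 58.9% for 50 kb. The share on X was 1.81% with 50% shared and 1.98% without the morula list, and lay from 1.26% to 1.49% under the other 5. Values under a changed distance differ by construction. Joining or widening removes regions that lie within 500 bp of another list's peak. Leaving a list out of the rule, or asking for 50% of both peaks, can only add regions. What else contributed to the differences was not tested. Splitting each autosome by its own day 14 peaks, and the densities by quintile without the day 14 list in the rule, were added after seeing the data.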
